A study of Homo sapiens with 18 samples.

Results

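The comparison described here is of untreated MSTO-211H cells at 24 h with untreated cells at 8 h, and it rests on 4 of the 18 arrays of the series. The 4 arrays were taken by their labels, 2 at 8 h (replicates 1 and 3) and 2 at 24 h (replicates 1 and 2), and no measured value was used to choose them. MSTO-211H is an established line of human malignant mesothelioma, a tumor of the serosal lining. The flasks were seeded 16 h before time zero, in full medium, to let cells attach, and cells without drug were harvested at 8 h or 24 h. Other flasks received 760 µM piroxicam (P), a non-steroidal anti-inflammatory drug, 4.5 µg/mL cisplatin (C), a platinum compound that binds DNA, or both (P/C), for the same times. All groups share the cell line and the seeding, and the sources used here do not say whether the medium was renewed. The comparison gives the drift of expression in culture against which the treated cells of each time were read.

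Cells kept in the same medium use up amino acids and glucose and crowd each other. Scarcity of amino acids is sensed by the kinase GCN2, which favours the translation of the transcription factor ATF4, and ATF4 with its C/EBP partners binds a composite DNA element in genes for amino acid synthesis, transport and tRNA charging. Falling insulin and AKT signalling lets FOXO factors enter the nucleus, where they bind forkhead elements in genes that slow growth. The kinase complex mTORC1 drives ribosome production and growth when nutrients are plentiful, and DDIT4 (REDD1) is one of its stress-induced inhibitors. These statements are background and not results of the arrays.

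Promoter elements of 2 kinds are printed because genes described below carry them. The 250 bases before the start sites of RefSeq genes (GRCh38.p14) were searched on both strands for TGATGNAA, the core of the C/EBP-ATF composite element, and for GTAAACA, a forkhead element. TGATGNAA was present in 3.14% of 35116 such windows and GTAAACA in 2.98%. Counted by gene, over any window of the gene, these shares were 3.89% and 3.66%. Of 28 genes with a window in the list for amino acid response and serine synthesis, 5 held TGATGNAA. Of 22 in the list for glucose and nutrient sensing, 5 held GTAAACA and none held TGATGNAA. A match is a description of letters and not of binding. In the windows below, written 5′ to 3′ on the strand of the gene, the capitals mark the match. The windows lie at chr7:97872444-97872501 (ASNS, minus strand), chr16:70289661-70289718 (AARS1, minus strand), chr19:33374046-33374103 (CEBPG, plus strand), chr1:145996672-145996728 (TXNIP, minus strand) and chr12:92146024-92146080 (BTG1, minus strand), all before the start of the transcript, and in AARS1 and BTG1 the match reads on the opposite strand.
ASNS: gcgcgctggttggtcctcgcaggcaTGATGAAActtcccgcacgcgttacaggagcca
AARS1: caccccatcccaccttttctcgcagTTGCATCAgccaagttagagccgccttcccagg
CEBPG: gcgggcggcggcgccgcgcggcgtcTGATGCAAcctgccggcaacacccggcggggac
TXNIP: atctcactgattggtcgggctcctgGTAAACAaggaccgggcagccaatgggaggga
BTG1: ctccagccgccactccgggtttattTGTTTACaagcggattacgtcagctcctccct

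The HGU133A array measures a gene by 1 or more probe sets, and the deposited values are log2 signals made with GCRMA. Over the 3057 probe sets tested, the correlation between the 8 h arrays was 0.93 and between the 24 h arrays 0.94. The 24 h replicate 2 array correlated with the 8 h arrays at 0.94 and 0.95, and the 24 h replicate 1 array at 0.90 with each. Replicate 1 was 1 or more above the mean of the 8 h arrays on the log2 scale in 100 probe sets and 1 or more below in 31, while for replicate 2 these counts were 19 and 8. The replicates themselves differed by 1 or more in 104 probe sets at 8 h and 108 at 24 h. Keratins KRT8 and KRT18 and the cadherin CDH2 were above a signal of 100 (log2 6.64) on all 4 arrays, and the other 15 of 18 measured mesothelial markers, with mesothelin (MSLN, 2.17 to 2.48) and calretinin (CALB2, 3.12 to 3.94) among them, were below it on all 4. None of 15 leukocyte and erythroid and 13 stromal and endothelial markers reached 100 on any of the 4. The log2 difference between the 3′ and 5′ control probe sets for ACTB, a sign of RNA quality, was 0.81 and 1.88 at 8 h and 0.81 and 1.45 at 24 h, so its ranges overlapped.

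Few probe sets passed the test between 8 h and 24 h without drug. Calls needed a log2 fold change of 1 or more in size and an adjusted p no higher than 0.05 (limma, Benjamini-Hochberg over all tested probe sets). Of 3057 probe sets 3 were called higher at 24 h (0.0981%) and none lower (0%). Before adjustment p was under 0.05 for 103 higher (3.37%) and 67 lower (2.19%) probe sets, together 5.56% of those tested. The median log2 fold change was 0.01, with quartiles of −0.21 and 0.22, and the median SE was 0.29. A change of 1 or more was measured in 31 probe sets upward and 5 downward.

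DDIT4, the inhibitor of mTORC1, was the gene with the largest rise. Its log2 signal was 2.35 and 2.79 on the 8 h arrays and 8.39 and 6.65 on the 24 h arrays. Both 8 h values lay close to the array medians of 2.74 and 2.77, near background, and both 24 h values were at or above a signal of 100. The fitted log2 difference was 4.95 (SE 0.46, n = 2 and 2, adjusted p = 3.23e-05). As the 8 h level is near background, the direction is measured and the size of the rise is not. Because the RNA came from whole flasks, a rise in every cell and a rise in a share of the cells cannot be told apart.

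YPEL5, a small conserved protein bound to a ubiquitin ligase complex, also rose. It measured 5.46 and 5.22 at 8 h and 7.83 and 6.81 at 24 h, which is 3.95-fold or 1.98 on the log2 scale (SE 0.32, adjusted p = 0.0159). The third called probe set, 211458_s_at, is assigned to more than 1 gene in the platform annotation, GABARAPL1 and GABARAPL3, and so is given by its identifier. It went from 4.13 and 4.36 to 6.37 and 5.85 (1.86, SE 0.30, adjusted p = 0.0159). Both times of 211458_s_at were below a signal of 100 (log2 6.64), so it passed the signal filter through treated arrays alone. In these 3 probe sets both 24 h arrays lay above both 8 h arrays, which a call in this comparison favours. The share over all tested probe sets was 17.9%. Without the 24 h replicate 1 array DDIT4 was still called (adjusted p = 3.28e-04), whereas YPEL5 and 211458_s_at were not (adjusted p = 0.598 for both). In such a fit the time left with 1 array is assumed to vary like the other groups. These last 2 also lost their calls without 8 h replicate 1 and without 8 h replicate 3.

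**Figure D1:**
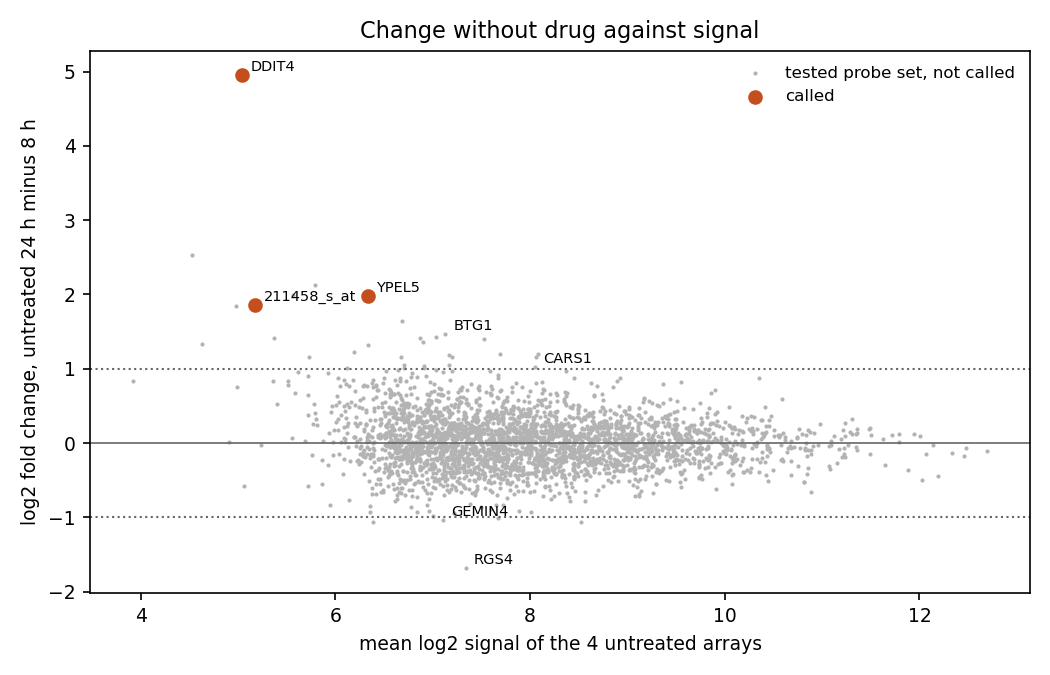
Log2 fold change from 8 h to 24 h in untreated cells (vertical axis) against the mean log2 signal of the 4 untreated arrays (horizontal axis) for the 3057 tested probe sets, with dotted lines at 1 and −1. The 3 called probe sets (filled circles) all lie above 1, DDIT4 at 4.95, and 5 probe sets lie at or below −1.

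The next genes in order of unadjusted p did not pass the adjusted threshold and are given as values. BTG1, an anti-proliferative protein and FOXO target, measured 6.64 and 6.16 at 8 h and 8.15 and 7.58 at 24 h, a log2 difference of 1.47 (SE 0.29, adjusted p = 0.0705). A second BTG1 probe set gave 0.82. BNIP3L, a receptor for the removal of mitochondria, measured 3.79 and 5.34 at 8 h and 6.85 and 6.26 at 24 h, a difference of 1.99 (adjusted p = 0.154). The 8 h arrays of BNIP3L were themselves more than 1 apart. TXNIP, which inhibits thioredoxin and glucose uptake, measured 4.40 and 5.07 at 8 h and 7.12 and 6.60 at 24 h (difference 2.12, adjusted p = 0.391). Its second probe set went from 3.33 and 3.18 to 6.89 and 4.69, a difference of 2.53 with the same sign. CARS1, the tRNA synthetase for cysteine, measured 7.16 and 7.93, then 8.78 and 8.34 (difference 1.02, adjusted p = 0.323). The lysosomal lipase LIPA differed by 0.84, the deadenylase subunit CNOT8 by 0.78, the membrane protein TMEM230 by 1.36 and butyrylcholinesterase (BCHE) by 1.16, with adjusted p values of 0.18 to 0.417. In each of these 8 genes both 24 h arrays were above both 8 h arrays, which picking them by p favours.

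On the lower side no gene was called. GEMIN4, a component of the SMN complex that assembles splicing particles, came closest, at 7.54 and 7.70 at 8 h and 6.38 and 6.79 at 24 h (log2 difference −1.03, SE 0.21, adjusted p = 0.0901). RGS4, which turns off G protein signalling, had the largest difference of the 10, and its arrays measured 8.42 and 7.94 at 8 h and 5.50 and 7.49 at 24 h (−1.68, SE 0.53, adjusted p = 0.649). Most of that difference lay in the 24 h replicate 1 array. CCND1 (cyclin D1), which drives cells from G1 into S phase, measured 8.00 and 8.34, then 7.52 and 6.82 (−1.0, adjusted p = 0.606). ORC5, a subunit of the origin recognition complex, was nearly equal within each time, at 7.93 and 7.92, then 7.11 and 7.02 (−0.87, adjusted p = 0.391). The ERK phosphatase DUSP7 differed by −1.06, the ubiquitin ligase UBE3C by −0.91, the inhibitor of differentiation ID3 by −0.89, the exonuclease REXO4 by −0.84, the phosphatidylserine synthase PTDSS1 by −0.68 and the ankyrin repeat protein SOWAHC by −0.66. In all 10 both 24 h arrays were below both 8 h arrays, which picking them by p in this same comparison favours. The share over all tested probe sets was 18.5%. Of the 10 higher genes 8 had a promoter window, and BTG1, CARS1 and TXNIP held GTAAACA while none held TGATGNAA. Of the 10 lower genes 8 had a window, and none held either motif.

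**Figure D2:**
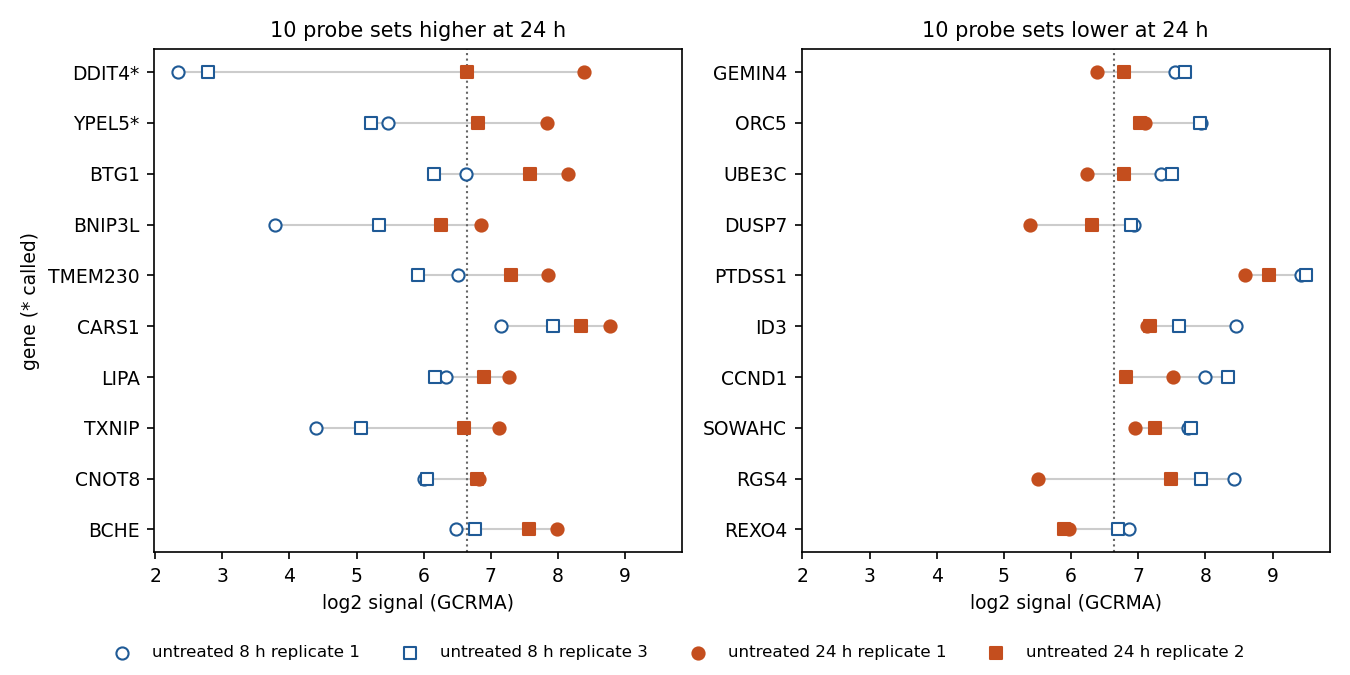
Log2 signal (horizontal axis) on each of the 4 untreated arrays for the 10 named genes higher and the 10 lower at 24 h; open symbols are 8 h, filled symbols 24 h, and the dotted line marks a signal of 100. DDIT4 and YPEL5, marked with an asterisk, were called, and in RGS4 the 24 h replicate 1 array stands apart at 5.50 from replicate 2 at 7.49.

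Gene lists are described by 1 probe set per gene and set beside all 2203 genes tested, of which 1111 (50.4%) had a positive log2 fold change and whose median was 0.00. In the list for amino acid response and serine synthesis 18 of 34 genes were tested. DDIT4 was the only member called, 5 members including DDIT4 had an unadjusted p under 0.05, all 5 higher, and 13 of the 18 had a positive value. The list median was 0.28. The 4 members besides DDIT4 under that unadjusted limit, named after their values were seen, were TRIB3, PSAT1, ASNS and CEBPG. TRIB3, a pseudokinase induced by ATF4, measured 5.62 and 6.11 at 8 h and 7.92 and 7.10 at 24 h, a difference of 1.65 (adjusted p = 0.649). PSAT1, an enzyme of serine synthesis, measured 7.78 and 7.18, then 8.98 and 8.30 (1.16, adjusted p = 0.545). ASNS, which makes asparagine and whose promoter element is printed above, measured 7.45 and 8.33, then 9.22 and 8.49 (0.96, adjusted p = 0.82). CEBPG, a C/EBP partner of ATF4, measured 5.27 and 4.61, then 5.97 and 5.60 (0.84, adjusted p = 0.78). ATF4 itself, also chosen after its values were seen, differed by 0.59 (adjusted p = 0.854).

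The lists for tRNA charging and nutrient sensing held no called gene. Of 9 aminoacyl-tRNA synthetases tested 7 were positive, with a median of 0.21, and CARS1 and AARS1 were the 2 under an unadjusted p of 0.05. AARS1 measured 8.48 and 8.47 at 8 h and 9.88 and 8.75 at 24 h (0.84, adjusted p = 0.718). Of 7 tested genes for glucose and nutrient sensing 5 were positive, and 3 had an unadjusted p under 0.05. In those 5 both 24 h arrays lay above both 8 h arrays (71.4% of the 7 beside 17.9% of all probe sets). Their list median was 0.59, and beside TXNIP and BTG1 the insulin receptor adaptor IRS2 measured 3.87 and 4.05, then 5.10 and 5.48 (1.33, adjusted p = 0.82). Both times of IRS2 were below a signal of 100. Of the 16 tested genes for glycolysis and hypoxia 10 were positive with a median of 0.04, and MXI1, an antagonist of MYC, measured 5.16 and 5.12, then 6.67 and 5.95 (1.16, adjusted p = 0.545). The median of the amino acid list was 0.56 for the 24 h replicate 1 array against the mean of the 8 h arrays and 0.07 for replicate 2. For the synthetases these were 0.49 and −0.07, and for nutrient sensing 0.79 and 0.39, so replicate 1 carried more of each.

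**Figure D3:**
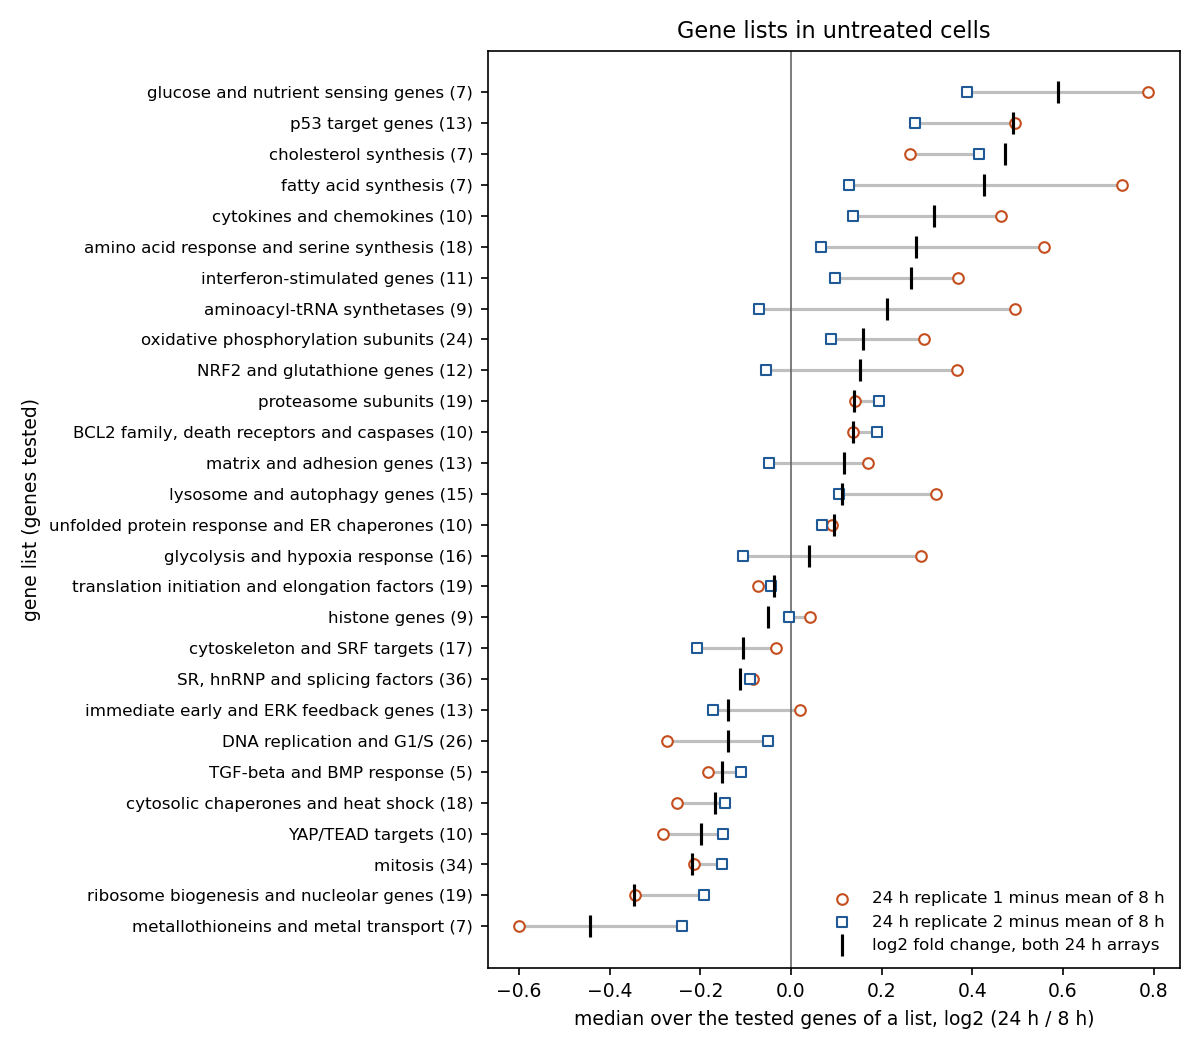
Median over the tested genes of each list (number in brackets) of the log2 ratio of 24 h to 8 h in untreated cells, for the log2 fold change (black bar) and for each 24 h array against the mean of the 8 h arrays. Nutrient sensing lies furthest right at 0.59 and metallothioneins furthest left at −0.44; for the synthetases the 24 h arrays fall on both sides of 0.

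Most lists that describe growth had medians below 0, with no member called. Of 19 tested genes for ribosome biogenesis and the nucleolus 17 were negative, with a median of −0.35, and in 13 both 24 h arrays lay below both 8 h arrays (68.4% of the 19 beside 18.5% of all probe sets). None of the 19 reached an unadjusted p of 0.05. DDX21, a nucleolar helicase, measured 9.44 and 10.24 at 8 h and 9.33 and 9.37 at 24 h (−0.49), and TSR1, which matures the small subunit, measured 8.12 and 8.01, then 7.71 and 7.55 (−0.44). Of 34 tested mitosis genes 27 were negative, with a median of −0.22, and of 26 for DNA replication 20 were negative, with a median of −0.14. Against the mean of the 8 h arrays, the mitosis median was −0.21 for 24 h replicate 1 and −0.15 for replicate 2. For DNA replication these were −0.27 and −0.05. The mitotic kinesins CENPE and KIF23 differed by −0.72 and −0.56 and the origin licensing factor CDC6 by −0.78. CENPE measured 6.67 and 7.73 at 8 h and 6.48 and 6.48 at 24 h. Of the 4 replication genes with an unadjusted p under 0.05, however, CCND1 alone was lower. The higher 3, named after their values were seen, were the single-strand DNA binding subunit RPA3 (0.76), the primase subunit PRIM1 (0.59) and the polymerase subunit POLD2 (0.57), with adjusted p values of 0.82 to 0.827. Of 18 cytosolic chaperones and heat shock genes 15 were negative (median −0.17), with CHORDC1 at −0.78 and the co-chaperone BAG3 at −0.66. Of 36 splicing factors 25 were negative (median −0.11), and PTBP1, a repressor of exons, measured 10.10 and 10.33, then 9.56 and 9.65 (−0.61, adjusted p = 0.649). Among 19 translation factors 10 were negative. Their median was −0.04, and 0.05 with the probe set of the largest IQR for each gene, so it has no direction, and the initiation factor subunit EIF3B differed by −0.55. The 7 tested metallothioneins and metal transporters had a median of −0.44, with 6 negative, and MT1X and MT1H at −0.77 and −0.73. For MT1X the times overlapped.

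Other lists leaned upward, again without a call among the probe sets that stood for their genes. Of 13 tested p53 target genes 10 were positive (median 0.49), and 2 had an unadjusted p under 0.05. In 8 both 24 h arrays lay above both 8 h arrays (61.5% of the 13 beside 17.9% of all probe sets). GDF15, a stress-induced cytokine, measured 6.85 and 6.80, then 8.89 and 7.56 (1.40, adjusted p = 0.827), and the death effector BAX measured 5.79 and 5.10, then 6.75 and 6.04 (0.95, adjusted p = 0.685). Of 24 subunits of oxidative phosphorylation 21 were positive, with a median of 0.16, SDHC at 0.85 and NDUFA2 at 0.62. Of 19 proteasome subunits 14 were positive (median 0.14), with PSMD4 at 0.40. Of 15 lysosome and autophagy genes 12 were positive (median 0.11), and MAP1LC3B, which marks autophagosomes, measured 7.38 and 7.57, then 8.49 and 7.84 (0.69, adjusted p = 0.693). GABARAPL2, another protein of the autophagosome chosen after its values were seen, differed by 0.47 (adjusted p = 0.82), with both 24 h arrays above both 8 h arrays. The called probe set 211458_s_at, assigned to GABARAPL1 and GABARAPL3, has more than 1 symbol and so was counted in no list. Lipid synthesis genes had medians of 0.47 (cholesterol, 7 tested) and 0.43 (fatty acids, 7 tested). For 24 h replicates 1 and 2 these were 0.26 and 0.42 for cholesterol, and 0.73 and 0.13 for fatty acids. LPIN1, a phosphatidate phosphatase, differed by 0.90 (adjusted p = 0.545), the desaturase SCD by 0.54, and the isoprenoid enzymes IDI1 and GGPS1 by 0.65 and 0.49.

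Among 10 tested cytokines and chemokines 7 were positive, with a median of 0.32. That median was 0.46 for 24 h replicate 1 against the mean of the 8 h arrays and 0.14 for replicate 2. IL1A, an inflammatory cytokine, measured 7.17 and 7.79 at 8 h and 8.73 and 8.64 at 24 h (1.20, adjusted p = 0.664), and IL1B measured 8.50 and 8.46, then 9.17 and 9.56 (0.88, adjusted p = 0.669). Of 10 YAP/TEAD targets, which respond to cell density and tension, 6 were negative (median −0.20), with CCN1 at 0.88 and NT5E at −0.87. In the unfolded protein response list 7 of 10 were positive (median 0.10), with the ER enzyme PDIA3 at 0.82 and HERPUD1, of ER-associated degradation, at 0.81. Of 12 NRF2 and glutathione genes 11 were positive (median 0.15). PGD of the pentose phosphate pathway was at 0.73 and GCLM, a subunit of the enzyme that begins glutathione synthesis, at −0.70. The list median was 0.37 for 24 h replicate 1 against the mean of the 8 h arrays and −0.06 for replicate 2.

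The same interval was measured on other arrays in the cells given a drug, and these comparisons share no array with the untreated one. With C, 49 probe sets were called between 8 h and 24 h (1.6%), with P 259 (8.47%) and with P/C 102 (3.34%). Across the 3057 probe sets the untreated log2 fold changes correlated with those of C at r = 0.54, of P at 0.41 and of P/C at 0.29. Probe sets are not independent replicates, and all arrays were normalized together. The sign was shared with C in 65.6% of the probe sets. Of the 10 named genes higher without drug all 10 were also higher with C, and DDIT4 (4.33, SE 0.42), TXNIP (3.94, SE 0.50), CARS1 (1.46) and BTG1 (1.16) were called there. Of the 10 lower genes all 10 were lower with C, with GEMIN4 (−1.30), DUSP7 (−1.33) and RGS4 (−2.60) called. With P the signs were shared by 9 of the 10 higher and 9 of the 10 lower genes, against 63.1% of all probe sets, and YPEL5 (1.57), BNIP3L (1.55) and TXNIP (1.55) were called higher and RGS4 (−1.70) and PTDSS1 (−1.17) lower. With P/C they were shared by 10 and 7, against 58.3%, and YPEL5 (1.44) and BTG1 (1.09) were called. C 24 h replicate 1 correlated with the other arrays of its group at 0.88 and 0.89, and those with each other at 0.96. In ATF3 at 24 h, C replicate 1 was at 5.09. The untreated arrays were at 4.67 and 4.01 and the other C arrays at 9.27 and 9.18. GDF15 did likewise (9.01, untreated 8.89 and 7.56, other C 11.27 and 11.68), as did HMGA2 (6.36, untreated 6.56 and 6.94, other C 4.34 and 4.35). In CNOT8 that array (7.13) lay between the other C arrays (7.01 and 7.415) and above the untreated ones (6.82 and 6.79). The 2 arrays of P/C at 24 h correlated at 0.86, and that value alone does not tell which of them differs. In CDC6 at 24 h, P/C replicate 1 (6.24) lay within the C arrays (5.69 to 6.66). Replicate 3 (3.57) lay near the P arrays (3.01 to 3.25). IDI1 did likewise (8.74 and 6.28, with C 8.15 to 8.83 and P 5.51 to 6.17). CNOT8 went the other way, with replicate 1 (6.88) near P (6.53 to 6.86) and replicate 3 (7.12) within C. All these genes were picked after their values were seen, and neither the pattern for C nor that for P/C was tested over all probe sets. With C 24 h replicate 1 and the like-numbered P/C array left out, the correlation with C was 0.43 and with P/C 0.36, and the log2 fold change of DDIT4 with C was 4.09.

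**Figure D4:**
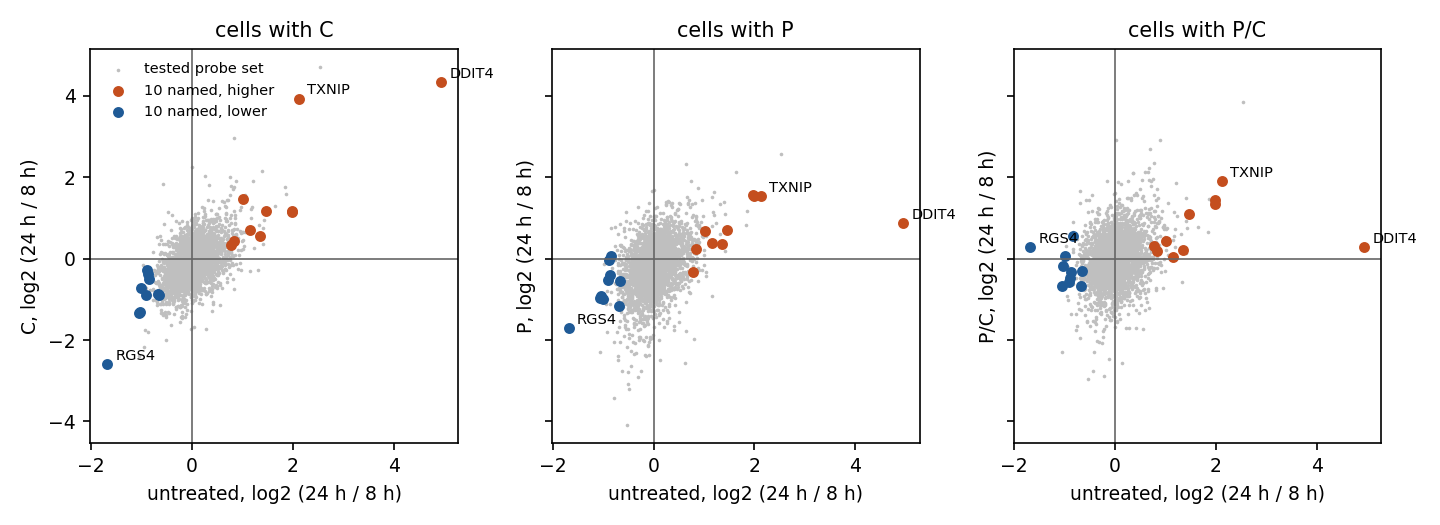
Log2 ratio of 24 h to 8 h in untreated cells (horizontal axis) against the same ratio in cells with C, P and P/C (vertical axes) for all tested probe sets, with the 10 named higher and 10 named lower genes in colour. With C all 20 keep their sign; DDIT4 lies at 4.33 with C, 0.87 with P and 0.29 with P/C.

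The time change itself was compared between drug and no drug by the interaction term. For C no probe set differed from untreated cells (0%), 78 had an unadjusted p under 0.05 and the smallest adjusted p was 0.915 (limma). For P 6 probe sets differed (0.196%), all with a more negative time change, and for P/C 2 (0.0654%). DDIT4 was called in both. Its difference was −4.08 for P, with an SE of 0.62 and an adjusted p of 0.0205. For P/C it was −4.66, with an SE of 0.65 and an adjusted p of 0.00702. The levels show where the difference lay. In untreated cells DDIT4 averaged 2.57 ± 0.32 (SD, n = 2) at 8 h and 7.52 ± 1.23 (SD, n = 2) at 24 h, and with C 3.80 ± 0.33 (SD, n = 2) and 8.13 ± 0.47 (SD, n = 3). With P/C it was already at 7.94 ± 0.30 (SD, n = 2) at 8 h and at 8.23 ± 0.75 (SD, n = 2) at 24 h, and with P its mean was 7.72 at 8 h and 8.59 at 24 h. At 24 h the range of the untreated arrays overlapped those of C and P/C and lay below the 3 arrays of P, while at 8 h both groups without piroxicam were low and both groups with it high.

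The other probe sets with a called difference were not called in the untreated comparison. With P the proteasome subunit PSMD12 went from 6.49 to 3.73 in mean log2 signal while untreated cells went from 7.84 to 7.59, a difference of −2.51 (adjusted p = 0.0478). The transcriptional coactivator SUB1 went from 6.77 to 2.69 with P and from 7.55 to 7.01 without, a time change of −0.54 in untreated cells. Its 24 h level with P lay near the medians of those arrays (2.73 to 2.82), near background, so the size of its fall is not measured. RFC5, which loads the DNA clamp, MCM4, of the replicative helicase, and NSL1, of the kinetochore, had untreated time changes of −0.07, −0.09 and 0.50 and changes with P of −1.98, −2.38 and −1.56. RBBP6, a ubiquitin ligase, went from 5.42 to 7.09 with P/C and from 6.98 to 6.28 without drug (−0.70, adjusted p = 0.76), a difference of 2.36 (adjusted p = 0.013). These differences depended on the arrays and settings used. PSMD12, RFC5, NSL1, SUB1 and MCM4 lost their calls with quantile normalization, without a filter and with the replicate number as a block. They kept them with C 24 h replicate 1 and the like-numbered P/C array left out. RBBP6 lost its call without a filter and kept it in the other settings of this kind. Counting fits without 1 untreated array, it was called in 5 of 8 alternatives. In those fits its difference was 2.14 to 2.58. For DDIT4 the difference was called in 4 of 8 alternatives for P (adjusted p 4.67e-04 to 0.243) and in 6 of 8 for P/C (1.76e-04 to 0.0858), and it was lost for both without a filter and without the untreated 8 h replicate 1 array. For P the count was 0 or 1 when any 1 untreated array was left out, and 59 with C 24 h replicate 1 and the like-numbered P/C array left out, and the count for C then rose from 0 to 17 and that for P/C from 2 to 24.

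The levels of the other named genes by group followed several shapes. YPEL5 was lower at 8 h than at 24 h in every treatment, with group means of 5.34 and 7.32 without drug, 6.11 and 7.67 with P, 5.79 and 6.95 with C, and 6.32 and 7.76 with P/C. TXNIP at 8 h was at 4.73 without drug and 4.78 with C but at 7.06 with P and 7.40 with P/C, and at 24 h it was at 6.86 in untreated cells and 8.60 to 9.32 in the treated groups. BTG1 at 8 h was at 6.40 without drug and 7.74 to 8.22 with drug, and 24 h untreated cells averaged 7.86. The second BTG1 probe set did not show this for C at 8 h, with 7.71 without drug, 7.55 with C, 8.29 with P and 8.75 with P/C. GEMIN4 went from 7.62 to 6.59 without drug and from 7.60 to 6.30 with C. RGS4 at 8 h was at 8.18 without drug and 7.93 with C, and at 5.08 with P and 4.39 with P/C, and untreated cells reached 6.50 ± 1.41 (SD, n = 2) at 24 h.

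**Figure D5:**
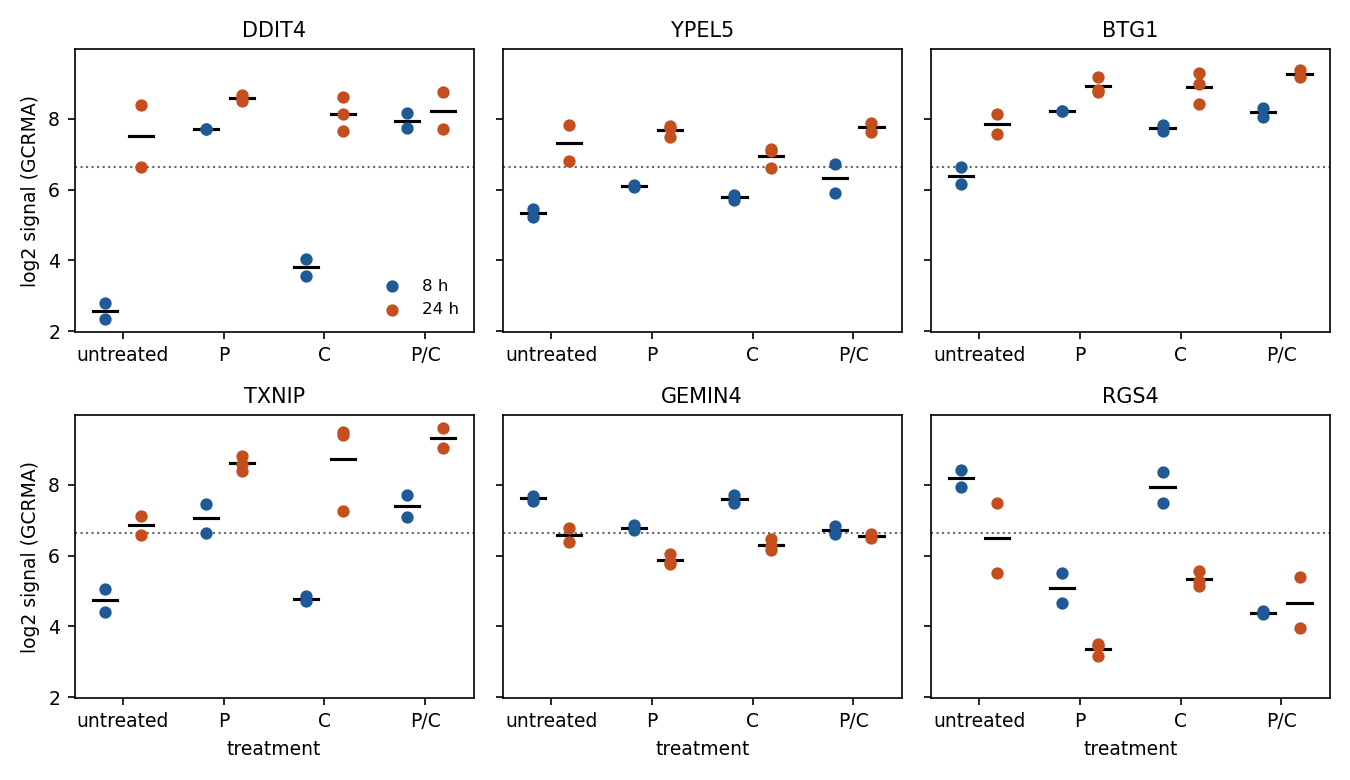
Log2 signal (vertical axis) of 6 named genes on each of the 18 arrays, by treatment and time (8 h and 24 h); points are arrays, short bars group means, and the dotted line a signal of 100. DDIT4 is near 2.57 at 8 h in untreated cells and between 6.65 and 8.39 at 24 h, while both groups with piroxicam already lie above 7 at 8 h.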

How the data were processed

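The authors hybridised RNA of each culture to 1 HGU133A array, removed arrays with outlying raw intensities and deposited log2 signals made with GCRMA (version not given in the sources used here), background-corrected and normalized between arrays. All 18 arrays were mapped by their labels. A filter with the thresholds of the paper's methods was applied to the deposited values of the 18 arrays, which keeps probe sets whose IQR reaches 0.25 and whose signal reaches 100 in 25% of arrays, and 68 control probe sets of 22283 were left out, leaving 3057. The fit, two-sided, used limma 3.58.1 (R 4.3.3) and 1 mean per group over all 18 arrays, with 10 residual and 5.76 prior degrees of freedom, and tested on simulated data. The methods do not say what a replicate number shares, so p-values measure the spread between these arrays, whose number limits the precision. Symbols came from the platform annotation, and 2750 tested probe sets had 1. The genes named were the 10 with the largest rises and falls among called probe sets without overlap between the times, filled by unadjusted p. Called members of each list, or up to 2 with the largest change, were added. A gene of a list was represented by its probe set with the highest mean. The lists and rules were chosen with earlier results of these data known. The transcript of p53 is not analysed here.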

Additional observations from a re-analysis of the deposited data

Results flagged for a closer look

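The time change differed between treated and untreated cells, by the interaction term of the fit, in 8 cases. With P the difference was −2.51 for PSMD12, −4.08 for DDIT4, −1.91 for RFC5, −2.06 for NSL1, −3.55 for SUB1 and −2.29 for MCM4 on the log2 scale (adjusted p = 0.0205 for DDIT4 and 0.0478 to 0.0495 for the others, limma). With P/C it was −4.66 for DDIT4 (adjusted p = 0.00702) and 2.36 for RBBP6 (adjusted p = 0.013). The calls with P other than DDIT4 were lost with quantile normalization and with the replicate number as a block. Without a filter all 8 calls were lost, with adjusted p values of 0.215 for P and 0.0858 for P/C. The 8 h level of DDIT4 in untreated cells and the 24 h level of SUB1 with P were near background, so the sizes of their differences are not measured. Groups of 2 or 3 arrays were not screened for outlying values of single results.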

How the results depend on the processing

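DDIT4 stayed called under all 17 alternatives, with log2 fold changes of 4.08 to 5.82 and adjusted p values of 2.94e-06 to 0.004. The count of 3 called probe sets, all higher, fell to 1 with a signal minimum of 200 and in a fit of untreated and C arrays, and rose to 6, all higher, without the C 24 h and P/C 24 h arrays numbered 1, where BTG1, TXNIP and TRIB3 were added. Without a filter 1 was higher and 1 lower (ORC1, −1.08, adjusted p = 0.0445). With the replicate number as a block 10 were called, 9 higher, with BNIP3L and CEBPD among them, and 1 lower (UMPS, −1.30), and the differences of time change gave 1 call for P, 0 for C and 2 for P/C. The untreated groups share only number 1, and their deviations correlated at 0.04. Deviations of same-numbered arrays from their group means correlated at 0.20 to 0.66 at 8 h and −0.22 to 0.39 at 24 h. In groups of 2 arrays the deviations mirror each other, so the values at 8 h come in equal pairs. Leaving out 1 untreated array gave 1 to 4 calls, 1 to 4 higher. For the difference of P from untreated cells, the count of 6 became 1 with quantile normalization, 0 without a filter, 59 without those 2 arrays, and 0 to 1 without 1 untreated array. For C it rose from 0 to 17 and for P/C from 2 to 24 without those 2 arrays. For P/C it was 0 without a filter and 0 to 2 without 1 untreated array. The untreated difference of RFC5 ranged from −0.27 to 0.13 and that of MCM4 from −0.40 to 0.23 when 1 array was left out. YPEL5 was called in 10 of 16 alternatives and 211458_s_at in 9 of 15. The causes were not tested. The probe set with the largest IQR moved no list median by more than the spread between arrays, but turned the sign for the translation factors (−0.04 to 0.05). Signals near background, such as DDIT4 at 8 h, give no size.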
